A study of Homo sapiens with 12 samples.

Results

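The integrated stress response (ISR) genes described here are 34 genes of ATF4 and its network, taken by name from the deposited count table, out of 26485 gene symbols in that table. All 34 were found there, and all 34 passed the filter on low counts that left 15206 genes for testing. They were measured in the RD cell line, established from a human rhabdomyosarcoma that lacks a PAX gene fusion, a childhood tumour that resembles immature skeletal muscle. Each construct, ish or ish2, gave the cells a hairpin that doxycycline switches on and that targets NT5E, which encodes CD73, the adenosine-making enzyme of the cell surface. The groups were ish2 cells with 10 ng/mL doxycycline (Dox) for 96 h, ish2 cells without Dox, ish cells with the same Dox treatment and ish cells without Dox, with 3 libraries each. All 12 libraries came from cells with an NT5E hairpin, and no cells with Dox and a control hairpin were analysed here, so an effect of Dox itself cannot be told apart from that of the hairpin. The labels do not say whether the replicates are separate cultures or whether each construct is a clone, so the p-values measure the spread between these libraries, which may be technical.

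The ISR is a shared answer of cells to amino acid shortage, unfolded protein, haem shortage and double-stranded RNA. Kinases for these stresses phosphorylate the initiation factor eIF2, which slows translation in general but raises translation of the ATF4 mRNA through upstream reading frames. ATF4 protein then switches on genes for amino acid synthesis, amino acid uptake and tRNA charging, along with factors such as DDIT3 (CHOP) and TRIB3 that feed back on the response. Because ATF4 is controlled largely at translation, its mRNA level is a weak guide to its protein, and no protein values were analysed here.

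Several of these genes share a promoter element to which ATF4 and C/EBP proteins bind as a pair, known as the C/EBP-ATF response element. RefSeq promoter windows (GRCh38.p14, 250 bases before to 50 bases after each gene start) were at hand for 28 of the 34 genes; those without one were PSPH, SHMT2, ALDH1L2, PYCR1, SLC7A11 and NUPR1. The windows were searched on both strands for the letters TGATGNAA, whose reverse complement is TTNCATCA. The motif was found in 8 of 45 windows, belonging to 8 of the 28 genes. Among all RefSeq windows of the same length, 3.62% of 35116 windows and 4.46% of 27305 genes held it. A match is a description of letters, not a measured binding site. The stretches around the 8 matches are shown on the strand of each gene, with the motif in capitals.
ASNS chr7:97872449-97872496 (-): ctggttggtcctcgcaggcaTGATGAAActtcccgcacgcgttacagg
CEBPG chr19:33374051-33374098 (+): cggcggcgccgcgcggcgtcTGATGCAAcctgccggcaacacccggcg
GARS chr7:30594825-30594872 (+): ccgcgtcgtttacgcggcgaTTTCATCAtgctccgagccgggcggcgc
AARS chr16:70289666-70289713 (-): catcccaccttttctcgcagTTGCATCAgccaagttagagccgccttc
ATF3 chr1:212565196-212565243 (+): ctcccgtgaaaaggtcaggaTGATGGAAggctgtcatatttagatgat
CHAC1 chr15:40953242-40953289 (+): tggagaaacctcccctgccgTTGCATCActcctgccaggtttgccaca
SLC7A1 chr13:29595663-29595692 (-): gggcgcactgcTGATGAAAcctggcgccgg
SLC3A2 chr11:62881725-62881748 (+): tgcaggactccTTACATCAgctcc
The ASNS element began at -68 from the start, that of CEBPG at -42 and that of GARS, listed in RefSeq as GARS1, at -33. The elements of AARS (RefSeq AARS1), ATF3 and CHAC1 lay farther upstream, at -187, -191 and -209. Those of SLC7A1 and SLC3A2 lay after the start, at bases 8 and 38.

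Gene counts per library ran from 26566603 to 32692207, and the biological coefficient of variation over all genes was 2.44%. With so little spread small folds pass the test, so counts of called genes are to be read against the share of all tested genes called. NT5E, which checks the labels, had 14.5, 15.2 and 14.1 CPM (each gene's reads scaled to a common library total) in ish2 Dox libraries, against 24.1, 23.5 and 22.1 CPM in ish2 no Dox libraries. It had 1.94, 1.23 and 1.54 CPM in ish Dox libraries, against 14.9, 18.0 and 17.3 CPM in ish no Dox libraries. The depletion was less deep with ish2 (log2 fold change -0.67) than with ish (-3.41). The difference was 2.74 (adjusted p = 2.91e-19, edgeR's quasi-likelihood test with Benjamini-Hochberg adjustment over all tested genes, the test behind every adjusted p in the text unless another is named). Of 12 skeletal muscle markers, 11 passed the filter, and the markers summed to 2286 to 2326 CPM in ish2 Dox, 2438 to 2487 CPM in ish2 no Dox, 3775 to 4011 CPM in ish Dox and 2322 to 2435 CPM in ish no Dox.

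A single library stood apart in these genes. In ish2 no Dox replicate 3, 33 of the 34 genes were lower than the mean of the other 2 libraries of its group, and ATF3 was level within 0.01 on the log2 scale. The median deviation of the 34 genes was -0.28 on the log2 scale, while that of all tested genes was 0.0034. Below -0.3 lay 14 of the 34, against 7.01% of all tested genes. The deepest were TRIB3 (-0.93), VLDLR (-0.84), ALDH1L2 (-0.74), NUPR1 (-0.69) and ASNS (-0.66). When 12348 genes with a mean log2 CPM of at least 1 were ranked by this deviation, 5 of the 40 lowest were among the 34, namely TRIB3, ALDH1L2, ASNS, ATF5 and GDF15. JDP2, PCK2, SLC1A4 and SLC6A9, other genes linked to ATF4, were among the 40 too, and are named for this rank after their values were seen. None of 8 eIF2 kinases and sensors, 10 subunits and phosphatase factors of eIF2 and eIF2B, 15 other cytosolic tRNA synthetases or 17 mitochondrial ones lay below -0.3, but some came close to it. YARS (-0.30), MARS (-0.29), CARS (-0.26) and IARS (-0.23) among the synthetases and PPP1R15A (-0.28), a factor of the eIF2 phosphatase, were about as low as the median of the 34. The medians of these 4 lists lay between -0.024 and 0.045. Over all genes, the chi-square per degree of freedom was 3.64 and 4.10 between this library and its mates, and 2.09 between the mates. In ish2 Dox the 34 genes also spread in step, with a median deviation of -0.13 in replicate 1 and 0.10 in replicate 3, whereas in the 6 ish libraries the medians stayed between -0.048 and 0.049. Results that rest on ish2 no Dox replicate 3 are given with and without it.

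**Figure D1:**
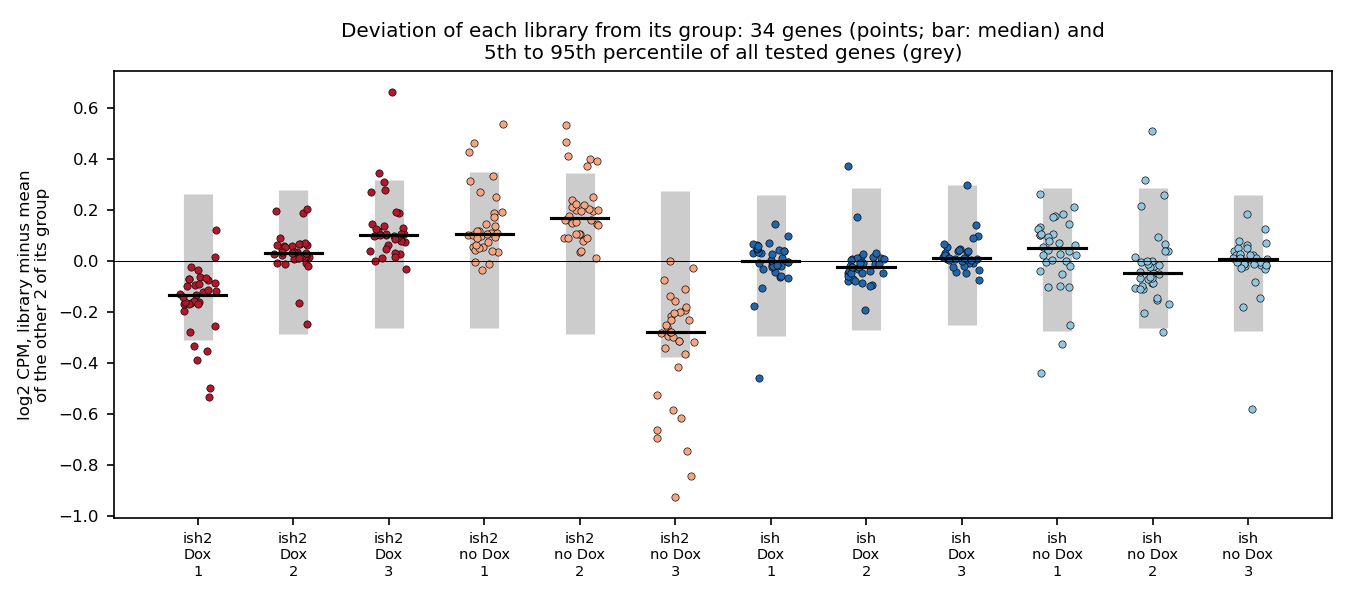
Deviation of each library from the mean of the other 2 of its group (log2 CPM, vertical axis) for the 34 ISR genes (points, with their median as a bar) and the 5th to 95th percentile of all tested genes (grey), for the 12 libraries along the horizontal axis. The points of ish2 no Dox replicate 3 centre on -0.28, while the medians of the 6 ish libraries lie between -0.048 and 0.049.

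With Dox, the ISR genes moved in both directions in ish2 and mostly down in ish. In ish2, 11 of the 34 rose, 11 fell and 12 did not pass the test, with a median log2 fold change of 0.037. Of all tested genes, 33.9% rose, 31.1% fell and 65% were called in either direction in ish2, with a median of 0.013, so the shares of the 34 were close to the background. Without ish2 no Dox replicate 3, 9 of the 34 rose and 16 fell, while of all 15405 genes tested in that fit 4788 rose and 4791 fell. In ish, 23 of the 34 fell, 6 rose and 5 did not pass the test, with a median of -0.60. Of all tested genes, 39.5% fell, 39.1% rose and 78.6% were called in ish, with a median of -0.0078. Among the 34, 10 fell past 2-fold in ish, the deepest being TRIB3, DDIT4, SLC7A11 and GDF15, and NUPR1 rose past 2-fold. The 8 genes whose windows hold the motif counted 3 rises and 3 falls in ish2, about the shares of all genes, and 2 rises and 5 falls in ish. Both comparisons are of bulk RNA, where fewer cells of a type and less RNA per cell cannot be told apart.

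Some of the calls among the 34 in ish2 lean on the spread shared by all 12 libraries. A fit of the 6 ish2 libraries alone called 7 rises and 8 falls among the 34. Over all 14569 genes tested in that fit, it called 4800 rises and 4675 falls. It did not call GDF15, ASNS, MTHFD2, SLC7A5, SLC7A1, WARS or AARS (adjusted p from 0.0569 to 0.115). In ish, a fit of the 6 ish libraries alone called 7 rises and 24 falls. Over all 14889 genes tested in that fit, it called 6019 rises and 6008 falls.

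**Figure D2:**
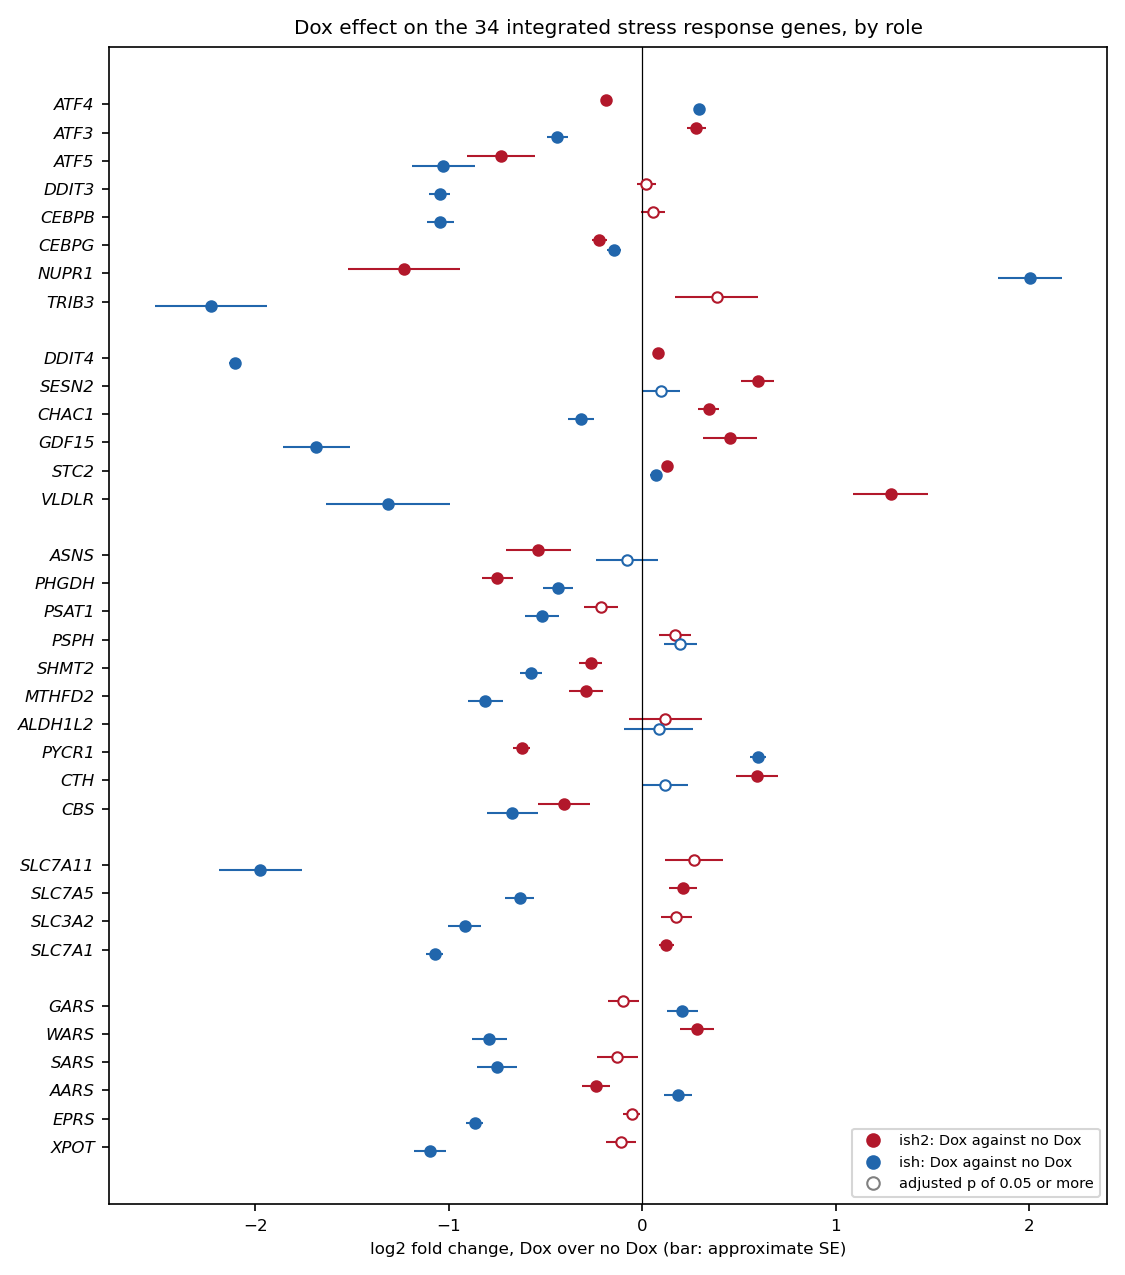
Log2 fold change of Dox over no Dox (horizontal axis) for each of the 34 ISR genes (rows, grouped by role) in ish2 (red) and ish (blue), with an approximate SE as bars and open symbols at an adjusted p of 0.05 or more. Red points lie on both sides of 0, from -1.23 to 1.28, while 24 blue points lie left of 0.

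Among the factors, ATF4, the transcription factor at the centre of the response (chr22:39519695-39522685, GRCh38), moved in opposite directions in the 2 constructs. It had 416, 426 and 429 CPM in ish2 Dox libraries, against 489.9, 500.4 and 458 CPM in ish2 no Dox libraries. It had 546, 524 and 538 CPM in ish Dox libraries, against 449.6, 424 and 439 CPM in ish no Dox libraries. Neither pair of groups overlapped, and every ish Dox library was above every other library. The log2 fold change was -0.19 ± 0.029 SE in ish2 (adjusted p = 6.35e-07) and 0.29 ± 0.028 SE in ish (adjusted p = 2.05e-11), and the difference between them was -0.48 (adjusted p = 7.22e-13). An exact two-sided permutation test of 3 against 3 libraries gave p = 0.1 in each construct, the smallest such a test can give. The annotation holds 4 named ATF4 pseudogenes, and the counting of reads shared with them is not described in the labels.

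DDIT3, CEBPB and ATF3 fell in ish, where ATF4 rose. DDIT3 (CHOP, a factor of prolonged stress; chr12:57516588-57521737) had 63.8, 67.4 and 68.4 CPM in ish2 Dox libraries, against 68.8, 68.7 and 59.2 CPM in ish2 no Dox libraries (0.020 ± 0.048 SE, adjusted p = 0.728). It had 25.4, 25.9 and 26.0 CPM in ish Dox libraries, against 56.6, 50.5 and 52.7 CPM in ish no Dox libraries (-1.05 ± 0.055 SE, adjusted p = 6.36e-15). The ish2 groups overlapped, while every ish Dox library was below every other library. CEBPB, a C/EBP factor that pairs with ATF4, was at 0.054 in ish2 and fell by 1.04 in ish on the log2 scale (adjusted p = 0.458 and 6.68e-12). Without ish2 no Dox replicate 3 the ish2 values were -0.063 for DDIT3 and -0.036 for CEBPB, neither of which passed the test. ATF3, a stress-induced factor of the same family as ATF4, rose in ish2 (0.28 ± 0.049 SE, adjusted p = 5.22e-06) and fell in ish (-0.44 ± 0.055 SE, adjusted p = 4.98e-09). DDIT3 overlaps MARS on the opposite strand and CEBPB overlaps an antisense gene, and the strand setting of the counting is not stated, so their reads cannot be told apart from those of these neighbours.

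TRIB3 (chr20:362835-397559), a pseudokinase that ATF4 and CHOP induce and that feeds back on them, had the deepest fall of the 34 in ish. It had 81.3, 97.7 and 107 CPM in ish2 Dox libraries, against 87.1, 87.1 and 45.8 CPM in ish2 no Dox libraries (0.38 ± 0.21 SE, adjusted p = 0.151). It had 12.4, 12.8 and 13.1 CPM in ish Dox libraries, against 57.0, 59.2 and 63.3 CPM in ish no Dox libraries (-2.23 ± 0.29 SE, adjusted p = 8.73e-05). Without the low ish2 no Dox replicate 3 the ish2 value was 0.12 and also did not pass the test. NUPR1, a small stress-induced chromatin protein, was scarce, with 0.308, 0.371 and 0.575 CPM in ish2 Dox libraries, against 1.26, 1.05 and 0.687 CPM in ish2 no Dox libraries, and fell (-1.23 ± 0.29 SE, adjusted p = 0.00035). In ish it rose, with 4.20, 4.95 and 4.59 CPM in Dox libraries, against 0.955, 1.44 and 1.02 CPM in no Dox libraries (2.00 ± 0.16 SE, adjusted p = 1.62e-13).

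ATF5, a relative of ATF4 that is likewise controlled at translation, and CEBPG, a C/EBP factor that pairs with ATF4, fell in both constructs. ATF5 had 25.8, 30.9 and 28.2 CPM in ish2 Dox libraries, against 51.6, 54.6 and 34.6 CPM in ish2 no Dox libraries (-0.73 ± 0.17 SE, adjusted p = 0.00523). It had 29.4, 30.1 and 30.5 CPM in ish Dox libraries, against 54.2, 67.3 and 62.0 CPM in ish no Dox libraries (-1.03 ± 0.16 SE, adjusted p = 0.000311). ATF5 overlaps NUP62 and IL4I1 on the opposite strand. CEBPG fell by 0.22 in ish2 and by 0.15 in ish on the log2 scale (adjusted p = 9.52e-06 and 0.000861). In all, the 8 factors counted 1 rise and 4 falls in ish2, where 31.1% of tested genes fell, and 2 rises and 6 falls in ish, where 39.5% fell.

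The stress outputs all rose in ish2, 6 of 6 where 33.9% of tested genes rose, and in ish 4 fell, 1 rose and 1 did not pass the test. DDIT4 (REDD1, an inhibitor of mTORC1; chr10:72273920-72276036) had 277, 289 and 289 CPM in ish2 Dox libraries, against 269, 274 and 266 CPM in ish2 no Dox libraries (0.081 ± 0.029 SE, adjusted p = 0.0139). It had 59.1, 58.7 and 60.9 CPM in ish Dox libraries, against 269, 245 and 256 CPM in ish no Dox libraries (-2.11 ± 0.033 SE, adjusted p = 2.82e-35). The ish Dox libraries lay far below all others, whereas the ish2 rise was small. That rise was lost without ish2 Dox replicate 2 or 3 or ish2 no Dox replicate 1 or 3 (0.051 to 0.069, adjusted p from 0.0656 to 0.192). An antisense gene overlaps DDIT4.

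SESN2 and CHAC1 were higher in ish2 before Dox as well as after it. SESN2, a leucine sensor that restrains mTORC1, had 111, 121 and 122 CPM in ish2 Dox libraries, against 81.5, 83.7 and 68.9 CPM in ish2 no Dox libraries (0.60 ± 0.086 SE, adjusted p = 0.000222). It had 48.7, 49.2 and 49.5 CPM in ish Dox libraries, against 50.5, 40.3 and 47.3 CPM in ish no Dox libraries (0.095 ± 0.099 SE, adjusted p = 0.404). All 6 ish2 libraries were above all 6 ish libraries. CHAC1, which breaks down glutathione, had 78.8, 81.2 and 84.8 CPM in ish2 Dox libraries, against 65.6, 68.9 and 58.8 CPM in ish2 no Dox libraries (0.34 ± 0.054 SE, adjusted p = 1.82e-05). In ish cells the values were 28.3, 28.5 and 29.1 CPM in Dox libraries, against 38.8, 32.4 and 36.0 CPM in no Dox libraries (-0.32 ± 0.065 SE, adjusted p = 0.000227). CHAC1 thus rose with Dox in the construct where it was already higher and fell in the other.

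GDF15, a secreted stress hormone, had 65.6, 71.9 and 75.2 CPM in ish2 Dox libraries, against 55.4, 61.2 and 38.8 CPM in ish2 no Dox libraries (0.45 ± 0.14 SE, adjusted p = 0.0184). In ish it had 16.0, 14.4 and 14.6 CPM in Dox libraries, against 46.1, 49.1 and 49.7 CPM in no Dox libraries (-1.69 ± 0.17 SE, adjusted p = 1.54e-05). The ish2 call was lost without ish2 Dox replicate 2 or 3 (0.43 and 0.39, adjusted p = 0.0574 and 0.072), and without ish2 no Dox replicate 3 the value was 0.27. VLDLR, a lipoprotein receptor, was scarce, with 2.64, 3.71 and 3.99 CPM in ish2 Dox libraries, against 1.59, 1.76 and 0.904 CPM in ish2 no Dox libraries (1.28 ± 0.19 SE, adjusted p = 8.61e-07). In ish cells the values were 0.295, 0.465 and 0.400 CPM in Dox libraries, against 1.09, 1.12 and 0.714 CPM in no Dox libraries (-1.32 ± 0.32 SE, adjusted p = 0.000436). For both genes the groups of a construct did not overlap, and both rose in ish2 and fell in ish. STC2, a secreted glycoprotein, rose by 0.13 in ish2 and 0.068 in ish (adjusted p = 0.000381 and 0.039). Its ish call was lost without ish Dox replicate 1 or 3 or ish no Dox replicate 2 or 3 (adjusted p from 0.159 to 0.341).

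**Figure D3:**
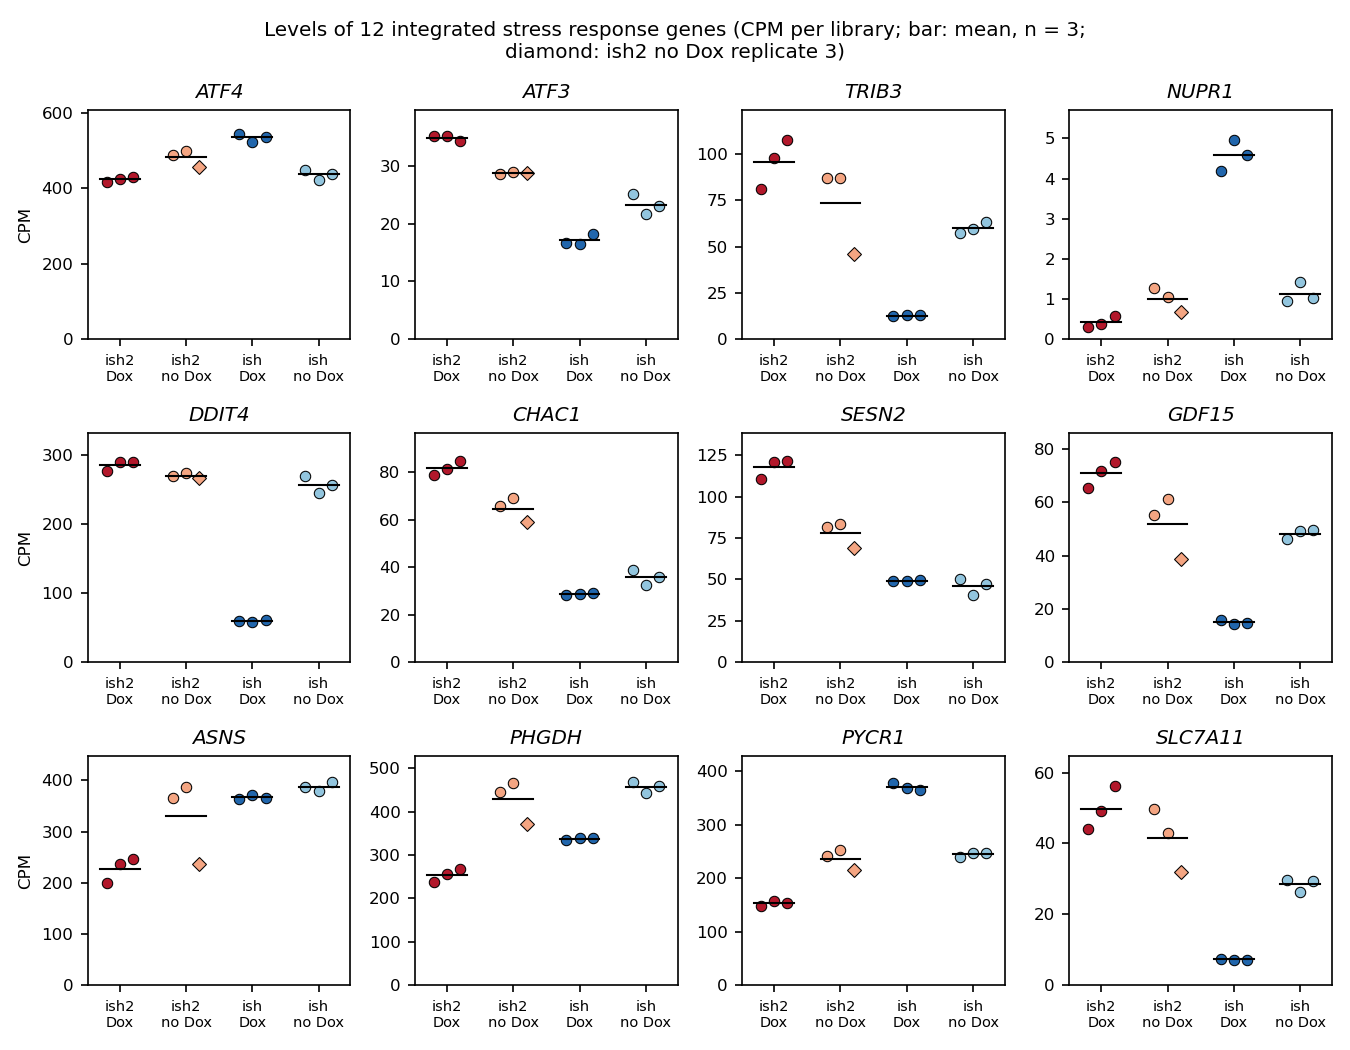
CPM per library (vertical axes, from 0) of 12 of the ISR genes in ish2 Dox, ish2 no Dox, ish Dox and ish no Dox (left to right), with the mean of 3 libraries as a bar and ish2 no Dox replicate 3 as a diamond. ATF4, NUPR1 and PYCR1 are highest in ish Dox, where TRIB3, DDIT4, GDF15 and SLC7A11 are lowest.

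Of the 10 biosynthetic enzymes, 1 rose and 6 fell in ish2, and 1 rose and 5 fell in ish. Of all tested genes 31.1% fell in ish2 and 39.5% in ish, so the falls in ish were near the background. ASNS, asparagine synthetase, had 199, 236 and 247 CPM in ish2 Dox libraries, against 365, 386 and 237 CPM in ish2 no Dox libraries (-0.54 ± 0.17 SE, adjusted p = 0.0194). These groups overlapped through ish2 no Dox replicate 3, without which the value was -0.74. The call was lost without ish2 Dox replicate 1 or ish2 no Dox replicate 1 or 2 (-0.47 to -0.43, adjusted p from 0.0629 to 0.0652). In ish, ASNS had 364, 371 and 366 CPM in Dox libraries, against 387, 379.8 and 397 CPM in no Dox libraries (-0.081 ± 0.16 SE, adjusted p = 0.661). The ish groups did not overlap, and the fit of the 6 ish libraries alone, whose spread leaves out ish2 no Dox, called this small fall (-0.083, adjusted p = 0.000522).

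PHGDH, PSAT1 and PSPH make serine from a glycolytic intermediate, in that order. PHGDH had 239, 256 and 269 CPM in ish2 Dox libraries, against 446, 467 and 372 CPM in ish2 no Dox libraries (-0.75 ± 0.080 SE, adjusted p = 2.9e-05). In ish it had 335, 340.5 and 339 CPM in Dox libraries, against 469, 443 and 459.6 CPM in no Dox libraries (-0.43 ± 0.078 SE, adjusted p = 0.000739). PHGDH thus fell in both, and the fall was larger in ish2 by the test of the difference (-0.32, adjusted p = 0.0306). That call was lost in 8 of the 12 fits that left out 1 library (adjusted p from 0.0506 to 0.0717), holding without ish2 Dox replicate 3, ish2 no Dox replicate 3, ish Dox replicate 1 or ish no Dox replicate 1. PSAT1 was at -0.21 in ish2, which did not pass the test (adjusted p = 0.0593) but did without ish2 no Dox replicate 3 (-0.33, adjusted p = 0.000175), with DESeq2 (adjusted p = 0.0201) and with upper quartile scaling (adjusted p = 0.0415). In ish PSAT1 fell (-0.52 ± 0.088 SE, adjusted p = 0.00051). PSPH passed in neither construct, at 0.17 in ish2 and 0.20 in ish (adjusted p = 0.108 and 0.0599). The ish2 value was 0.072 without ish2 no Dox replicate 3, and was called without ish2 no Dox replicate 2 (0.22, adjusted p = 0.0432). In ish, PSPH was called as a rise by the fit of the 6 ish libraries alone (adjusted p = 3.32e-05), by DESeq2 (adjusted p = 0.0203), with RLE scaling (adjusted p = 0.0482) and with the replicate block (adjusted p = 0.0466). PSAT1 and PSPH have named pseudogenes that may share reads with them, as do ASNS and SLC7A5. Genes on the opposite strand overlap ASNS, SHMT2, MTHFD2, ALDH1L2, PYCR1, VLDLR, SLC7A5, GARS, WARS, AARS and XPOT, with the same limit.

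The mitochondrial folate enzymes SHMT2 and MTHFD2 fell in both constructs, by less in ish2 than in ish. SHMT2 fell by 0.27 in ish2 and by 0.57 in ish on the log2 scale (adjusted p = 0.00198 and 3.92e-06; difference 0.31, adjusted p = 0.00608). MTHFD2, which has 7 named pseudogenes, fell by 0.29 in ish2 and by 0.81 in ish (adjusted p = 0.0169 and 2.62e-05; difference 0.52, adjusted p = 0.00485). The ish2 call of MTHFD2 was lost without ish2 Dox replicate 1 or ish2 no Dox replicate 1 (adjusted p = 0.055 and 0.0525). ALDH1L2, of the same mitochondrial pathway, was at 0.12 in ish2 and 0.084 in ish and passed in neither (adjusted p = 0.61 and 0.684). Its ish2 value was -0.10 without ish2 no Dox replicate 3, and the fit of the 6 ish libraries alone called a small rise in ish (0.082, adjusted p = 0.00363).

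PYCR1, the mitochondrial enzyme of the last step of proline synthesis (chr17:81932384-81942412), moved in opposite directions in the 2 constructs, as ATF4 did. It had 148, 158 and 154 CPM in ish2 Dox libraries, against 241, 253 and 215 CPM in ish2 no Dox libraries (-0.62 ± 0.044 SE, adjusted p = 1.18e-09). It had 378, 369 and 364 CPM in ish Dox libraries, against 240.0, 246 and 247 CPM in ish no Dox libraries (0.60 ± 0.042 SE, adjusted p = 4.96e-10). The uninduced groups overlapped. CTH and CBS, the enzymes of transsulfuration, which makes cysteine from homocysteine, were scarce and did not move together. CTH had 5.83, 7.68 and 7.64 CPM in ish2 Dox libraries, against 4.59, 5.07 and 4.37 CPM in ish2 no Dox libraries (0.59 ± 0.11 SE, adjusted p = 1.34e-05), and was at 0.12 in ish (adjusted p = 0.35). CBS fell by 0.41 in ish2 and by 0.67 in ish on the log2 scale (adjusted p = 0.0082 and 2.05e-05).

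Of the 4 amino acid transporters, 2 rose in ish2 and all 4 fell in ish, where 39.5% of tested genes fell. SLC7A11, the cystine carrier of system xc- (chr4:138164097-138242349), had 44.1, 49.1 and 56.3 CPM in ish2 Dox libraries, against 49.7, 42.8 and 32.0 CPM in ish2 no Dox libraries (0.27 ± 0.15 SE, adjusted p = 0.149). The ish2 value was 0.095 without ish2 no Dox replicate 3, and was called without ish2 no Dox replicate 1 (0.41, adjusted p = 0.0369). In ish cells the values were 7.45, 7.14 and 7.08 CPM in Dox libraries, against 29.6, 26.2 and 29.4 CPM in no Dox libraries (-1.97 ± 0.21 SE, adjusted p = 2.36e-05). An antisense gene overlaps SLC7A11. SLC3A2, the heavy chain that SLC7A11 and SLC7A5 both need, was at 0.18 in ish2 (adjusted p = 0.0815). That value was 0.073 without ish2 no Dox replicate 3, and was called without ish2 no Dox replicate 2 (0.23, adjusted p = 0.0156). In ish it had 62.5, 62.4 and 63.5 CPM in Dox libraries, against 127, 113 and 117 CPM in no Dox libraries (-0.92 ± 0.086 SE, adjusted p = 6.18e-06). SLC7A5, the large neutral amino acid carrier, rose in ish2 (0.21 ± 0.073 SE, adjusted p = 0.0303), a call lost without ish2 Dox replicate 1, 2 or 3 (0.18 to 0.22, adjusted p from 0.0562 to 0.114). Without ish2 no Dox replicate 3 it was called at 0.10. In ish it fell (-0.64 ± 0.076 SE, adjusted p = 3.82e-05).

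SLC7A1 carries arginine and lysine, and its printed window holds the motif just after the start. It had 126, 132 and 133 CPM in ish2 Dox libraries, against 126, 124 and 109 CPM in ish2 no Dox libraries (0.12 ± 0.039 SE, adjusted p = 0.00801). In ish cells the values were 44.7, 43.3 and 44.3 CPM in Dox libraries, against 94.7, 91.9 and 92.2 CPM in no Dox libraries (-1.07 ± 0.044 SE, adjusted p = 1.58e-17). The ish2 groups overlapped, and their call was lost without ish2 Dox replicate 2 or 3 or ish2 no Dox replicate 3 (0.042 to 0.095, adjusted p from 0.0792 to 0.239).

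Synthetases join an amino acid to its tRNA, and XPOT carries tRNAs out of the nucleus. In ish2, WARS (tryptophan) rose (0.28 ± 0.089 SE, adjusted p = 0.0211) and AARS (alanine) fell (-0.24 ± 0.072 SE, adjusted p = 0.0165). The WARS call was lost without ish2 Dox replicate 2 or 3 (adjusted p = 0.0707 and 0.0909) and stood at 0.16 without ish2 no Dox replicate 3. That of AARS was lost without ish2 Dox replicate 1 or ish2 no Dox replicate 1 (adjusted p = 0.0501 and 0.053). GARS (glycine), SARS (serine), EPRS (glutamate and proline) and XPOT were between -0.13 and -0.055 in ish2 and did not pass the test. Without ish2 no Dox replicate 3 these 4 were at -0.20, -0.27, -0.13 and -0.22 and passed it. Falls among these 6 genes in ish2 thus numbered 1 with that library and 5 without it. Of all tested genes, 31.1% fell with it, and 4791 of 15405 fell without it.

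In ish, 4 of the 6 fell and 2 rose, where 39.5% of tested genes fell and 39.1% rose. EPRS had 212, 211 and 218 CPM in ish Dox libraries, against 396, 388 and 384 CPM in ish no Dox libraries (-0.87 ± 0.044 SE, adjusted p = 2.93e-11). XPOT had 184, 177 and 182 CPM in ish Dox libraries, against 383, 387 and 391 CPM in ish no Dox libraries (-1.10 ± 0.081 SE, adjusted p = 1.15e-06). SARS and WARS fell by 0.75 and 0.79 on the log2 scale (adjusted p = 0.000143 and 3.49e-05). AARS and GARS rose, by 0.18 and 0.21 (adjusted p = 0.0393 and 0.0421), and neither call held when any of the 6 ish libraries was left out (adjusted p from 0.0603 to 0.124). GARS, WARS, AARS and XPOT each have a named pseudogene.

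**Figure D4:**
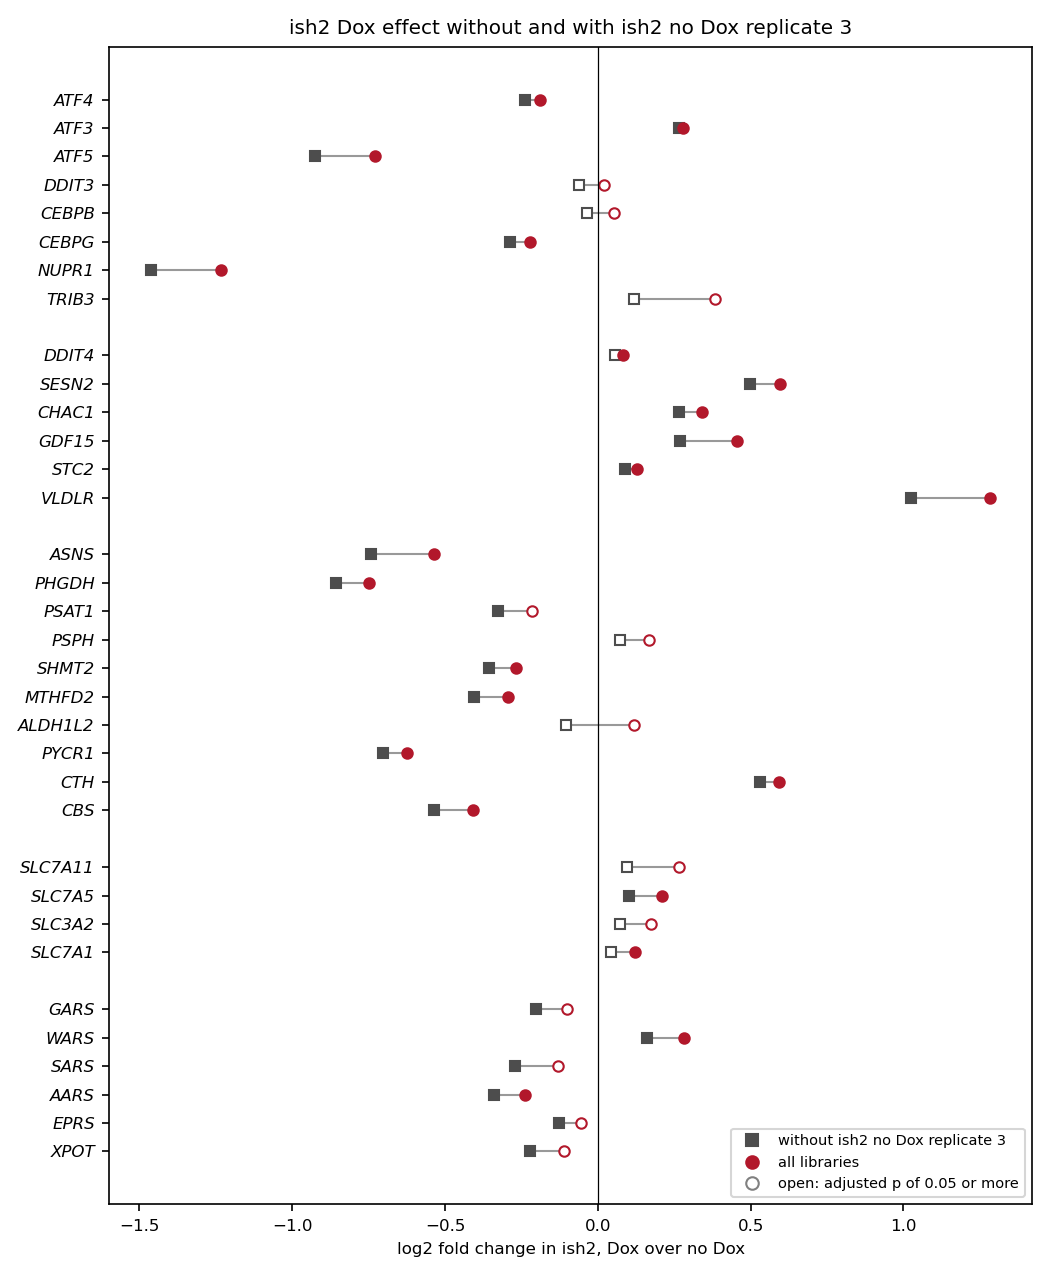
Log2 fold change of Dox over no Dox in ish2 (horizontal axis) for the 34 ISR genes (rows, by role) without ish2 no Dox replicate 3 (squares) and with all libraries (circles), with open symbols at an adjusted p of 0.05 or more. Leaving the library out lowers the value of all 34 genes, to 0.12 for TRIB3, against 0.38 with it.

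The uninduced lines also differed in some of these genes. Of the 34, 12 were higher in ish2 no Dox than in ish no Dox, 0 were lower and 22 did not pass the test. At an unadjusted p under 0.05, 16 were higher and 2 were lower in edgeR's test, and DESeq2 called 13 higher and 0 lower. Without the filter on low counts, 10 were higher and 2, SHMT2 and EPRS, were lower. Of all tested genes, 13.7% were higher, 12.4% were lower and 26.1% were called in the fit behind the 12. DESeq2 called 2003 higher and 1224 lower of 15206 genes. Without the filter, 2063 were higher and 1957 lower of 21276. The share of all genes at an unadjusted p under 0.05 was not counted. The median log2 fold change of ish2 no Dox over ish no Dox was 0.13 for the 34 and -0.0038 for all tested genes. The largest called differences were those of CHAC1 (0.85 ± 0.059 SE, adjusted p = 7.16e-09), SESN2 (0.76 ± 0.095 SE, adjusted p = 0.000428) and SLC7A11 (0.55 ± 0.16 SE, adjusted p = 0.0369). The other 9 were SLC7A1 (0.36), PSPH (0.34), STC2 (0.34), ATF3 (0.30), DDIT3 (0.30), GARS (0.26), CEBPB (0.20), ATF4 (0.14) and CEBPG (0.10).

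The count of uninduced differences moved with single libraries. It was 22, all higher, without ish2 no Dox replicate 3, with TRIB3, DDIT4, GDF15, VLDLR, PSAT1, MTHFD2, SLC7A5, SLC3A2, SARS and AARS added. In that fit 1729 of all 15405 tested genes were higher and 1493 lower. The count was 7, all higher, without ish2 no Dox replicate 1, ish no Dox replicate 2 or ish no Dox replicate 3. Those fits called 3538 of 15404, 2985 of 15380 and 3015 of 15383 tested genes, in that order. Without ish2 no Dox replicate 2, 8 were higher and SHMT2 was lower. Of all 15403 genes tested in that fit, 2025 were higher and 1679 lower. The calls of SLC7A11, GARS, CEBPB, CEBPG and PSPH each were lost in 3 to 5 of the 6 fits that left out 1 uninduced library. Those of CHAC1, SESN2, SLC7A1, STC2, ATF3, DDIT3 and ATF4 held in all 6.

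The test of the difference between the Dox effects called 26 of the 34. The ish2 effect was above the ish effect in 20 of them and below it in 6. Over all tested genes it was above in 37.4% and below in 35.2%, and 72.6% were called. The count of 26 in either direction was thus close to the background. The median difference, ish2 effect minus ish effect, was 0.51 for the 34 and 0.0094 for all tested genes. The positive differences were led by TRIB3 (2.61), VLDLR (2.60), SLC7A11 (2.24), DDIT4 (2.19) and GDF15 (2.14). The negative ones were NUPR1 (-3.24), PYCR1 (-1.22), ATF4 (-0.48), AARS (-0.42), PHGDH (-0.32) and GARS (-0.31). A rise in ish2, a fall in ish and a called difference were found for 8 genes: ATF3, CHAC1, DDIT4, GDF15, SLC7A1, SLC7A5, VLDLR and WARS. A fall in ish2, a rise in ish and a called difference were found for 4: AARS, ATF4, NUPR1 and PYCR1. How many of all tested genes had either pattern was not counted. Taken singly, 33.9% of them rose and 31.1% fell in ish2, and 39.1% rose and 39.5% fell in ish. The call of GARS was lost in 8 of the 12 fits that left out 1 library (adjusted p from 0.0517 to 0.0832), namely without ish2 Dox replicate 1, ish2 no Dox replicate 1 or 2, ish Dox replicate 1, 2 or 3, or ish no Dox replicate 2 or 3. The Dox comparisons and that of the uninduced lines share their no Dox libraries.

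Upstream of ATF4 stand the kinases and sensors that trigger or restrain the response. For these lists the shares to compare with are again 33.9% higher and 31.1% lower in ish2, and 39.1% higher and 39.5% lower in ish, over all tested genes. Of 8 kinases and sensors, 4 rose and 2 fell in ish2, with values from -0.18 to 0.37, and 6 rose and 2 fell in ish, with values from -0.38 to 0.48. In ish2, EIF2AK4 (GCN2, the kinase of amino acid shortage) rose by 0.29 and EIF2AK2 (PKR, the kinase of double-stranded RNA) by 0.37 on the log2 scale (adjusted p = 3.47e-11 and 1.67e-10). In ish, EIF2AK1 (HRI, the kinase of haem shortage) rose by 0.48 and EIF2AK3 (PERK, the kinase of the endoplasmic reticulum) by 0.42 (adjusted p = 1.28e-18 and 4.85e-10). EIF2AK2 and EIF2AK4 rose in ish too, by less than in ish2 (ish2 effect minus ish effect 0.21 and 0.088). In ish2, EIF2AK1 fell (-0.13) and EIF2AK3 did not pass the test (0.040). Among 10 subunits of eIF2, its exchange factor eIF2B and its phosphatases, 7 rose and 2 fell in ish2, and 3 rose and 5 fell in ish. EIF2B2 had the smallest p of the 10 in both, with a rise of 0.58 in ish2 and a fall of 0.69 in ish (adjusted p = 2.24e-18 and 4.37e-20).

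Most of the other genes linked to ATF4 fell in ish. Of 27 tested, 13 rose and 6 fell in ish2, with a median of 0.13, and 1 rose and 22 fell in ish, with a median of -0.55. In ish2, 33.9% of all tested genes rose and 31.1% fell, and without ish2 no Dox replicate 3 the list counted 13 rises and 10 falls there. In ish 39.5% of all tested genes fell. TNFRSF10B, a death receptor that CHOP induces, rose in ish2 (0.66) and fell in ish (-1.16; adjusted p = 8.13e-17 and 9.62e-23). In ish2 the autophagy receptor SQSTM1 rose by 0.65 and the arginine carrier SLC7A2 by 0.52 (adjusted p = 3.71e-21 and 1.02e-17). In ish the autophagy gene MAP1LC3B (-0.93) and the glutamine carrier SLC38A1 (-0.98) fell (adjusted p = 3.2e-24 and 6.14e-14). ALDH18A1, which starts proline synthesis, was the 1 gene of this list that rose in ish (0.73, adjusted p = 3.03e-23).

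The comparison lists held rises and falls in both constructs, several near the shares of all tested genes (33.9% higher and 31.1% lower in ish2, 39.1% higher and 39.5% lower in ish). Of 15 other cytosolic synthetases, 4 rose and 6 fell in ish2, and 8 rose and 5 fell in ish, among them LARS (leucine) and HARS (histidine) with rises of 0.39 and 0.43 (adjusted p = 2.07e-16 and 1e-15). Of 17 mitochondrial synthetases, 5 rose and 6 fell in ish2, and 8 rose and 5 fell in ish. Of 12 other genes of folate metabolism, 2 rose and 6 fell in ish2, and 3 rose and 7 fell in ish. TYMS, thymidylate synthase, fell by 0.72 in ish2 and by 1.03 in ish on the log2 scale (adjusted p = 1.46e-09 and 4.91e-12).

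**Figure D5:**
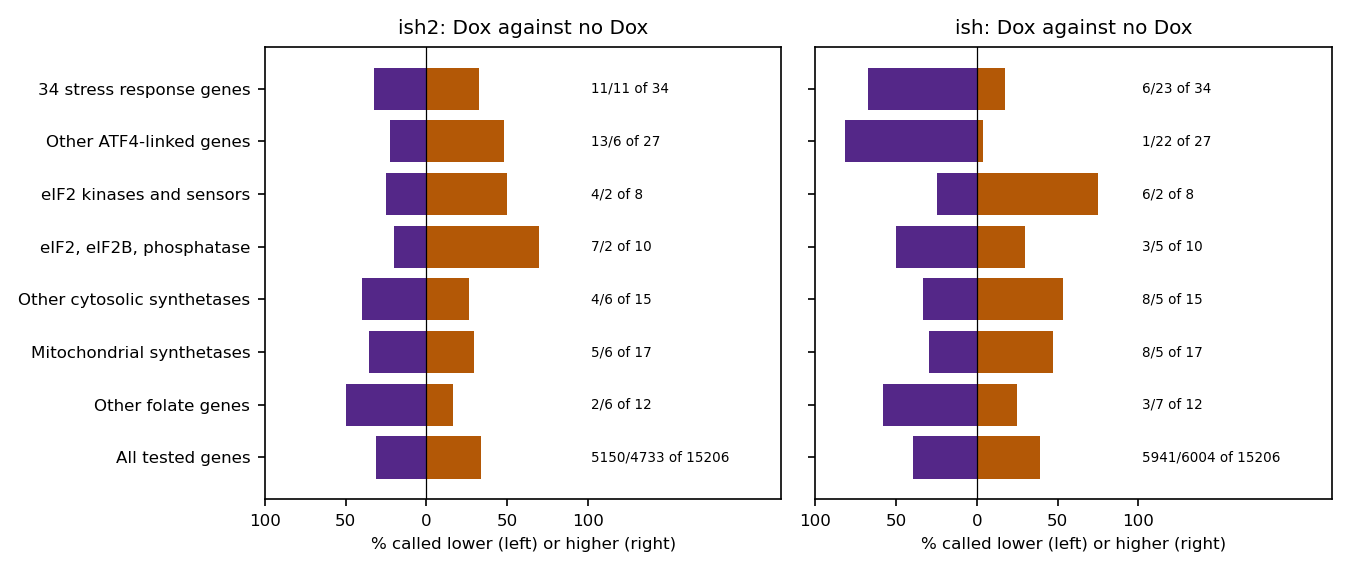
Share of genes called lower (left of 0) or higher (right of 0) with Dox, in percent (horizontal axis), for the 34 ISR genes, 6 related lists and all tested genes (rows), in ish2 (left panel) and ish (right panel), with the counts called higher and lower beside each bar. In ish, 23 of the 34 and 22 of the 27 other ATF4-linked genes were lower.

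Other features of the cells moved with Dox as well. The sum of 5 markers of dividing cells ran from 1182 to 1202 CPM in ish2 Dox, against 1982 to 2177 CPM in ish2 no Dox. It ran from 817 to 831 CPM in ish Dox, against 1919 to 1984 CPM in ish no Dox. All 5 of these markers fell in both constructs. Of the 11 tested muscle markers, 2 rose and 7 fell in ish2, and 8 rose and 2 fell in ish, against 31.1% of tested genes that fell in ish2 and 39.1% that rose in ish, with MYOG, a factor of muscle differentiation, at -2.24 in ish2 and 2.62 in ish. The part of these shifts in the values of the 34 genes was not tested. Of 5 epithelial markers, 2 passed the filter, the keratins KRT8 and KRT18, which rose in ish2 and fell in ish. The 5 summed to 60.2 to 61.2 CPM in ish2 Dox, against 37.5 to 42.5 CPM in ish2 no Dox, and to 6.79 to 8.67 CPM in ish Dox, against 31.9 to 33.7 CPM in ish no Dox. These are the directions of 8 of the 34, GDF15 and VLDLR among them. The share of all tested genes with these directions was not counted. EPCAM and CDH1, which define epithelial cells, stayed at or under 0.51 CPM in every library. Of 5 fibroblast markers, 4 passed the filter, with 1 rise and 2 falls in ish2, and 2 rises and 1 fall in ish. They summed to 182 to 193 CPM in ish2 Dox, against 206 to 225.5 CPM in ish2 no Dox, and to 112 to 117 CPM in ish Dox, against 170.0 to 178 CPM in ish no Dox. Markers of endothelial cells summed to 11.2 CPM at most and those of leukocytes to 4.93 CPM at most in any library. The part of the epithelial and fibroblast markers in the values of the 34 was not tested either.

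Set per kilobase of annotated exons, the mean levels of the 34 covered a wide range. The length joined all annotated exons of a gene, for example 9217 bases for PHGDH and 5674 for NUPR1. It can exceed that of a single transcript, so the order of the genes depends on it. In ish2 Dox cells PSAT1 had 180 CPM per kilobase, ATF4 169, GARS 158 and DDIT4 138, against 208, 192, 169.7 and 131 CPM per kilobase in ish2 no Dox cells. In ish Dox cells ATF4 led with 213 CPM per kilobase, followed by GARS with 164, PSAT1 with 132 and PYCR1 with 128, while DDIT4 had 29.0. In ish no Dox cells PSAT1 had 189 CPM per kilobase, ATF4 174, GARS 142 and DDIT4 125. The scarcest in ish no Dox cells were VLDLR (0.10 CPM per kilobase), NUPR1 (0.20) and CBS (0.63).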

How the data were processed

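RNA-seq libraries of RD cells were read as raw gene counts per library, deposited by the authors in 1 table with no unused sample columns. Per the submitters' processing notes, Trim Galore 0.6.4, STAR 2.7.3a, featureCounts and Subread 1.6.3 were used on GRCh38; neither the annotation, the strand setting nor the treatment of shared reads is given in these sources. In the table, 5 rows name no gene and stayed out of library sizes: per library, alignments that were not unique took 7.15% to 9.57% of all counted entries, reads on no feature 10.8% to 12.8%, ambiguous reads 2.08% to 2.65% and unaligned reads 0.604% to 0.716%. Non-unique and ambiguous reads thus have rows of their own, and whether any of them also counted towards a gene is not stated.

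Counts were normalised by TMM, filtered by filterByExpr (15206 of 26485 symbols kept) and fitted over all 12 libraries with edgeR 4.0.16 (R 4.3.3, limma 3.58.1), with a mean per group and robust quasi-likelihood tests of 4 contrasts. Adjusted p-values are Benjamini-Hochberg over all tested genes, with calls under 0.05. The SE of a log2 fold change is its size over the root of F and is approximate. CPM used TMM library sizes, and log2 CPM a prior count of 2. The code was tested on simulated data. Gene positions and exon lengths are from GENCODE on GRCh38. Alternatives were other scalings, no filter, DESeq2 1.42.0, the 6 compared libraries alone, the replicate block, glmTreat against a 1.2-fold threshold and leaving out each library. The members and lists were chosen with earlier results of these data known. The text names all 34 genes, NT5E and, from each other list, genes among the 4 with the smallest p per Dox contrast; genes named for their level in ish2 no Dox replicate 3, and marker genes, were chosen after their values were seen.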

Additional observations from a re-analysis of the deposited data

Results flagged for a closer look

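The Dox effects of ish2 and ish differed by the test of the difference itself in 26 of the 34 genes (edgeR's quasi-likelihood test, ish2 effect minus ish effect on the log2 scale). Among the factors the difference was -0.4807 for ATF4 and -3.2364 for NUPR1, and 0.7186 for ATF3, 1.0689 for DDIT3, 1.0984 for CEBPB and 2.6132 for TRIB3. Among the stress outputs it was 2.1864 for DDIT4, 0.5003 for SESN2, 0.6602 for CHAC1, 2.1414 for GDF15 and 2.5993 for VLDLR. Of the enzymes, PHGDH (-0.3156) and PYCR1 (-1.2221) had a negative difference, and SHMT2 (0.3062), MTHFD2 (0.5204) and CTH (0.474) a positive one. All 4 transporters had a positive difference, with SLC7A11 at 2.2421, SLC7A1 at 1.1966, SLC3A2 at 1.0944 and SLC7A5 at 0.8459. Of the tRNA genes, GARS (-0.3055) and AARS (-0.4247) had a negative difference, and SARS (0.6227), EPRS (0.8116), XPOT (0.9885) and WARS (1.0739) a positive one. A positive difference need not be a rise in ish2, since SHMT2 and MTHFD2 fell in both constructs. Of all tested genes, 72.6% differed by the same test, so the count of 26 was close to the background.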

How the results depend on the processing

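Over 19 other settings and 1938 gene values, 1737 kept their direction and side of the threshold, 143 calls were lost, 37 were gained and 21 values changed sign, none of them of a gene called with all libraries. Against a 1.2-fold threshold (glmTreat), which asks for a larger change by construction, 7 of the 34 were called in ish2 (3 higher, 4 lower) and 2 between the uninduced lines. In ish 23 of the 34 were called (2 higher, 21 lower), and 22 for the difference (18 higher, 4 lower). The 4 contrasts together then gave 54 calls, against 89 with no fold threshold. Over all tested genes 4419 were called in ish2, 7905 in ish, 161 between the uninduced lines and 7867 for the difference. Leaving out 1 library gave 17 to 25 calls among the 34 in ish2, 26 to 27 in ish, 24 to 29 for the difference and 7 to 22 between the uninduced lines. Over all tested genes the same fits gave 9350 to 9579, 11544 to 11653, 10807 to 10977 and 2985 to 3704 calls, in that order. Upper quartile scaling ended the calls of DDIT4 (0.056) and SLC7A5 (0.19) in ish2 and of STC2 (0.062) and GARS (0.20) in ish; the cause was not tested. Scalings moved the median of all genes by under 0.1.

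Small values changed sign. DDIT3 in ish2 was -0.0049 under upper quartile scaling and ran from -0.0632 to 0.0461 over the fits that left out 1 library. Over the same fits, CEBPB ran from -0.0355 to 0.0955 and ALDH1L2 from -0.1045 to 0.2334 in ish2, and the differences of PSPH and ALDH1L2 ran from -0.1154 to 0.0307 and from -0.18 to 0.1605. Between the uninduced lines, NUPR1 ran from -0.396 to 0.0271, GDF15 from -0.0337 to 0.2727, PYCR1 from -0.0978 to 0.0173, CBS from -0.2033 to 0.046, SARS from -0.0885 to 0.1097 and XPOT from -0.1252 to 0.0318.

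Replicate numbers did not pair the libraries: deviations of same-numbered libraries correlated at -0.0798 to 0.0381, and 3 of 12 libraries correlated best with their own number. With the replicate block, calls among the 34 numbered 17 in ish2 (9 higher, 8 lower), 28 in ish, 9 between the uninduced lines and 24 for the difference, 78 in all. Over all 15206 tested genes they numbered 9695 in ish2, 11821 in ish, 3918 between the uninduced lines and 10891 for the difference. A fit of only the 6 compared libraries cannot give the difference, which needs all 12.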
